A study of Homo sapiens with 8 samples.

Results

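MHC class I antigen presentation was followed through 9 genes named as its members, out of 63677 gene IDs counted in each library. They are the heavy chain genes HLA-B, HLA-C, HLA-E and HLA-F, the light chain gene B2M, the peptide transporter genes TAP1 and TAP2, the loading factor gene TAPBP and the transactivator gene NLRC5. All 9 were found by symbol, and all 9 passed the low-count filter in every comparison. The cells were PC9, an established human lung adenocarcinoma line, and PC9-BrM3, a brain metastatic subline derived from it, grown in culture. The shHSF1 group was PC9-BrM3 transduced with a lentiviral doxycycline-inducible hairpin against HSF1 (Tet-pLKO-shHSF1, clone 7480, the only HSF1 hairpin in these samples). HSF1 is the transcription factor of the heat shock response. Its control, shNTC, was PC9-BrM3 with the non-target hairpin Tet-pLKO-shNTC. Both transduced groups went through puromycin selection for 5 days and doxycycline at 500 ng/mL for 48 h. Untransduced PC9-BrM3 and PC9 parental cells were kept in culture for 48 h with no doxycycline or puromycin named for them. Each of the 4 groups had 2 libraries.

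Class I molecules show fragments of a cell's own proteins to cytotoxic T cells. The proteasome cuts proteins, the TAP1/TAP2 transporter moves the peptides into the endoplasmic reticulum, aminopeptidases trim them there, and tapasin (the product of TAPBP) holds the empty heavy chain and B2M at the transporter until a peptide is bound. NLRC5 switches on the heavy chain, B2M and TAP1 promoters together with the RFX factors, and interferons raise most genes of the pathway, NLRC5 included. Natural killer cells read the same molecules as a signal to hold back, and HLA-E in particular is a ligand of an inhibitory receptor on them.

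Libraries held 33550140 to 56715336 counts, so that a count of 0 allows up to 0.0529 to 0.0894 CPM before TMM scaling. CPM are read counts scaled to a common depth. The CPM printed for genes are on TMM-scaled library sizes, which correct for a few abundant genes taking a larger share. The file headers put the transduced libraries on sequencing lane 1 and the untransduced on lane 7, so comparisons were made within each set and lane cannot be told apart from transduction between the sets. PC9-BrM3 replicate 2 stood apart. It had 17.3% mitochondrial counts, against 1.40% to 6.23% in the other 7 libraries, a TMM factor of 0.838, and a difference from its partner of chi-square 301 per degree of freedom, against 10.9 to 25.1 for the other pairs. Nothing in the labels tells if the 2 libraries of a group came from different cultures. P-values therefore reflect only how far these libraries varied, and that variation may be technical. HSF1 itself had 15.6 and 13.5 CPM in shHSF1 libraries, against 178 and 184 CPM in shNTC libraries, 12.2-fold lower (edgeR's quasi-likelihood test, adjusted p = 2.66e-08). On the other lane it had 54.6 and 52.7 CPM in untransduced PC9-BrM3 libraries, against 46.9 and 49.99 CPM in PC9 parental libraries, so the shNTC level lay above that of the same subline untransduced. All 6 epithelial markers were present, their sum running from 2848 to 6148 CPM. Of 4 lung lineage markers, SFTPC was at 0 counts in all 8 libraries, and NKX2-1 was at no more than 0.196 CPM and NAPSA at no more than 0.762 CPM. The surfactant gene SFTPB moved with the groups, at 0.0257 and 0.112 CPM in shHSF1 libraries, against 0.351 and 1.14 CPM in shNTC libraries, and at 1.58 and 2.65 CPM in PC9-BrM3 libraries, against 11.5 and 15.6 CPM in PC9 parental libraries. Of 10 leukocyte markers, MS4A1 and NKG7 were at 0 counts in all 8 libraries and PTPRC, the pan-leukocyte marker, reached at most 0.0770 CPM. The summed leukocyte list was nonetheless 976 and 908 CPM in shHSF1 libraries, against 538 and 503 CPM in shNTC libraries, because 1 gene, the actin-bundling LCP1, made up nearly all of it (974 and 907 CPM in shHSF1, against 537 and 502 CPM in shNTC). LCP1 had 368 and 332 CPM in PC9-BrM3 libraries, against 728 and 732 CPM in PC9 parental libraries. Fibroblast markers summed to at most 0.0902 CPM in any library. The endothelial list summed to 19.6 to 55.9 CPM, nearly all from CDH5, with TEK at no more than 0.103 CPM. CDH5 had 24.3 and 18.7 CPM in shHSF1 libraries, against 44.3 and 37.6 CPM in shNTC libraries, and 32.5 and 25.2 CPM in PC9-BrM3 libraries, against 55.3 and 51.2 CPM in PC9 parental libraries. The neural list summed to 96.1 to 161 CPM, nearly all from MBP, with SNAP25 and RBFOX3 at no more than 0.0191 CPM. MBP had 102 and 95.7 CPM in shHSF1 libraries, against 128 and 124 CPM in shNTC libraries, and 113 and 106 CPM in PC9-BrM3 libraries, against 156 and 161 CPM in PC9 parental libraries. The part of SFTPB, CDH5, MBP or LCP1 in the results below was not tested.

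Promoter sequence was available for 7 of the 9 members (RefSeq, build GRCh38.p14), and 6 are shown so that the promoters of the members with the largest (TAP1) and smallest (B2M) fold changes after knockdown can be read beside those of their partners. Each line gives the 250 bases before the start of the gene, read 5′ to 3′ on its own strand, with motif matches in capitals. Capitals mark the interferon-stimulated response element (ISRE, GAAANNGAAA or its complement TTTCNNTTTC), the Y box (CCAAT or ATTGG), the core of the X2 box (TGACG or CGTCA) and the kappa B site. These matches were found on both strands, and adjoining matches can overlap, as the paired ISRE matches of TAP1, TAPBP and B2M do.
TAP1: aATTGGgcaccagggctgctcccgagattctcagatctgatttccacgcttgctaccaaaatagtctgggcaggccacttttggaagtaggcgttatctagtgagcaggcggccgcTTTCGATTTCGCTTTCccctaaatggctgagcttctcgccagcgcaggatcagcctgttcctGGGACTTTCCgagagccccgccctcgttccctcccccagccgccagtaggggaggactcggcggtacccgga
TAP2: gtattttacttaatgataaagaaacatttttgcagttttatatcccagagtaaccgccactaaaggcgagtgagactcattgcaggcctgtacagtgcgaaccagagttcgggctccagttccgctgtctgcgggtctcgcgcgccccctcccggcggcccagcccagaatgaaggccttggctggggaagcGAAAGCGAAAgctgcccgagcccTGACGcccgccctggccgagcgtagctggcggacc
TAPBP: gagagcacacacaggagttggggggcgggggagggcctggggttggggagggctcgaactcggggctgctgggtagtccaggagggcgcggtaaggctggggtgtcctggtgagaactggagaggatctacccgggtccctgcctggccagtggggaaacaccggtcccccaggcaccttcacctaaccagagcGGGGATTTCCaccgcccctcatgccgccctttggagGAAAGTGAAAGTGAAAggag
HLA-B: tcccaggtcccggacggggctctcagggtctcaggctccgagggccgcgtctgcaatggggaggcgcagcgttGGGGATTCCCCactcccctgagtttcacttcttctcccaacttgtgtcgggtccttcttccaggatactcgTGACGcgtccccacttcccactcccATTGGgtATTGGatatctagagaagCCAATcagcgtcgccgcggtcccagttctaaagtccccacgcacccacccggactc
HLA-C: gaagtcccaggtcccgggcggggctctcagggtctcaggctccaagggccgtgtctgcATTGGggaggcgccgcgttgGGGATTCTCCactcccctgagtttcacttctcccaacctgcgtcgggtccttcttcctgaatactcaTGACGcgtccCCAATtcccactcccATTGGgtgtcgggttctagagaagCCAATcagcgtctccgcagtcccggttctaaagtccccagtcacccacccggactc
B2M: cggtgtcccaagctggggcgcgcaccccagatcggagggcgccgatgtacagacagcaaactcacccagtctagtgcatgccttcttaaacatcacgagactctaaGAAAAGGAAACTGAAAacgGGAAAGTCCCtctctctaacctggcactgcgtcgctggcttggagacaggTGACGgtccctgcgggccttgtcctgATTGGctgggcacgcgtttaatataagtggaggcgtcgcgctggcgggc

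The windows are chr6:32853705-32853954 for TAP1, chr6:32838740-32838989 for TAP2, chr6:33314079-33314328 for TAPBP, chr6:31357180-31357429 for HLA-B and chr6:31272093-31272342 for HLA-C, all on the minus strand, and chr15:44711267-44711516 on the plus strand for B2M. An ISRE match was found in HLA-F, B2M, TAP1, TAP2 and TAPBP, and in 3.02% of 35116 promoter windows of the same length. Kappa B matches were found in HLA-B, HLA-C, B2M, TAP1 and TAPBP (5.21% of windows). The Y box letters occur in 32.0% of windows and the X2 core letters in 21.2%. HLA-B and HLA-C, which share 89.0% of aligned bases in this window, each carry a kappa B match, an X2 core and Y box matches. TAP1 and B2M, the members furthest apart in the knockdown comparison, both carry overlapping ISRE matches followed by a kappa B match. No heat shock element (GAANNTTCNNGAA or TTCNNGAANNTTC, found in 0.441% of windows) matched in any of the 7 windows. A match is a string of letters and was not tested as a binding site. Only exact matches were sought, so a window without one may still hold a variant of the element.

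After HSF1 knockdown, 7 of the 9 members were higher and none was lower, with the transporter subunit TAP1 and the transactivator NLRC5 far ahead of the rest. A gene is called here where edgeR's quasi-likelihood test gave an adjusted p under 0.05 over all 16840 genes tested. In that comparison 22.2% of all genes were called higher and 23.5% lower (45.7% in either direction), so a call alone was common. The members' median log2 fold change was 0.33, beside 0.01 over all genes. For 8 of 9 members both shHSF1 libraries lay above both shNTC libraries, and 73.9% of all genes had groups that did not overlap, in either direction. The members' count used TMM-scaled CPM and the share of all genes used CPM before that scaling, so the scales differ. In bulk RNA, a change in the share of cells that express a gene and a change in RNA per cell cannot be told apart.

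TAP1, which forms the transporter with TAP2, had 38.1 and 37.7 CPM in shHSF1 libraries, against 15.8 and 17.0 CPM in shNTC libraries. The groups were far apart, and replicates of each lay close together. The log2 fold change was 1.24 ± 0.08 (SE), 2.36-fold (edgeR's quasi-likelihood test, adjusted p = 3.13e-06). Its partner TAP2 had 32.6 and 32.1 CPM in shHSF1 libraries, against 26.8 and 29.4 CPM in shNTC libraries. Here the gap between the groups was about the size of the gap between the shNTC libraries. Its log2 fold change of 0.23 ± 0.08 just passed the threshold (edgeR adjusted p = 0.0468), and the call was lost with any 1 of the 4 libraries left out, with DESeq2, with no count filter and with all 8 libraries in 1 fit (adjusted p 0.0633 to 0.358). In the authors' GRCh37 annotation TAP2 lies at chr6:32789610-32806557 and TAP1 at chr6:32812986-32821755, both on the minus strand, with PSMB8 between them.

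NLRC5, the class I transactivator (chr16:57023397-57117443, plus strand, GRCh37), had 28.1 and 24.0 CPM in shHSF1 libraries, against 14.0 and 13.1 CPM in shNTC libraries. Its level was higher in both shHSF1 libraries than in either control library. The log2 fold change was 0.97 ± 0.11, 1.96-fold (edgeR's quasi-likelihood test, adjusted p = 7.14e-05). TAPBP, whose product tapasin edits the peptides bound, had 177 and 171 CPM in shHSF1 libraries, against 137 and 144 CPM in shNTC libraries. That was a smaller step, with a log2 fold change of 0.33 ± 0.06 (edgeR adjusted p = 0.00124).

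Among the heavy chains, the non-classical HLA-E and HLA-F had larger fold changes than the classical HLA-B and HLA-C. HLA-E had 115 and 111 CPM in shHSF1 libraries, against 85.1 and 80.0 CPM in shNTC libraries, a log2 fold change of 0.47 ± 0.07 (edgeR's quasi-likelihood test, adjusted p = 0.000267). HLA-C, a classical heavy chain that also binds killer cell receptors, had 126 and 129 CPM in shHSF1 libraries, against 106 and 111 CPM in shNTC libraries. The groups were separate, and the log2 fold change was 0.26 ± 0.06 (edgeR adjusted p = 0.00533). HLA-F, a non-classical heavy chain, was the least abundant member, with 3.52 and 3.25 CPM in shHSF1 libraries, against 2.54 and 2.34 CPM in shNTC libraries. It rested on 86 to 137 counts a library, and its log2 fold change of 0.49 ± 0.18 (edgeR adjusted p = 0.0442) was lost as a call in the same alternatives as TAP2 (adjusted p 0.0618 to 0.206).

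The 2 members that were not called were the classical heavy chain HLA-B and the light chain B2M. HLA-B had 18.8 and 20.8 CPM in shHSF1 libraries, against 17.3 and 17.9 CPM in shNTC libraries. The libraries did not overlap, and the log2 fold change was 0.19 ± 0.10 (interval 0.00 to 0.38). It missed the threshold in edgeR's quasi-likelihood test (adjusted p = 0.137, unadjusted p = 0.0783). A 95% interval from that test would be wider and would include no change. B2M had 219.5 and 219.4 CPM in shHSF1 libraries, against 216 and 221 CPM in shNTC libraries. These groups overlapped, and the interval of the log2 fold change, -0.08 to 0.13 around 0.03, holds no change as large as that of HLA-C (edgeR adjusted p = 0.703). With all 8 libraries in 1 fit, HLA-E, TAP1 and NLRC5 were the 3 members still called. That fit takes 1 spread per gene from all groups, the PC9-BrM3 pair that stood apart included.

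**Figure D1:**
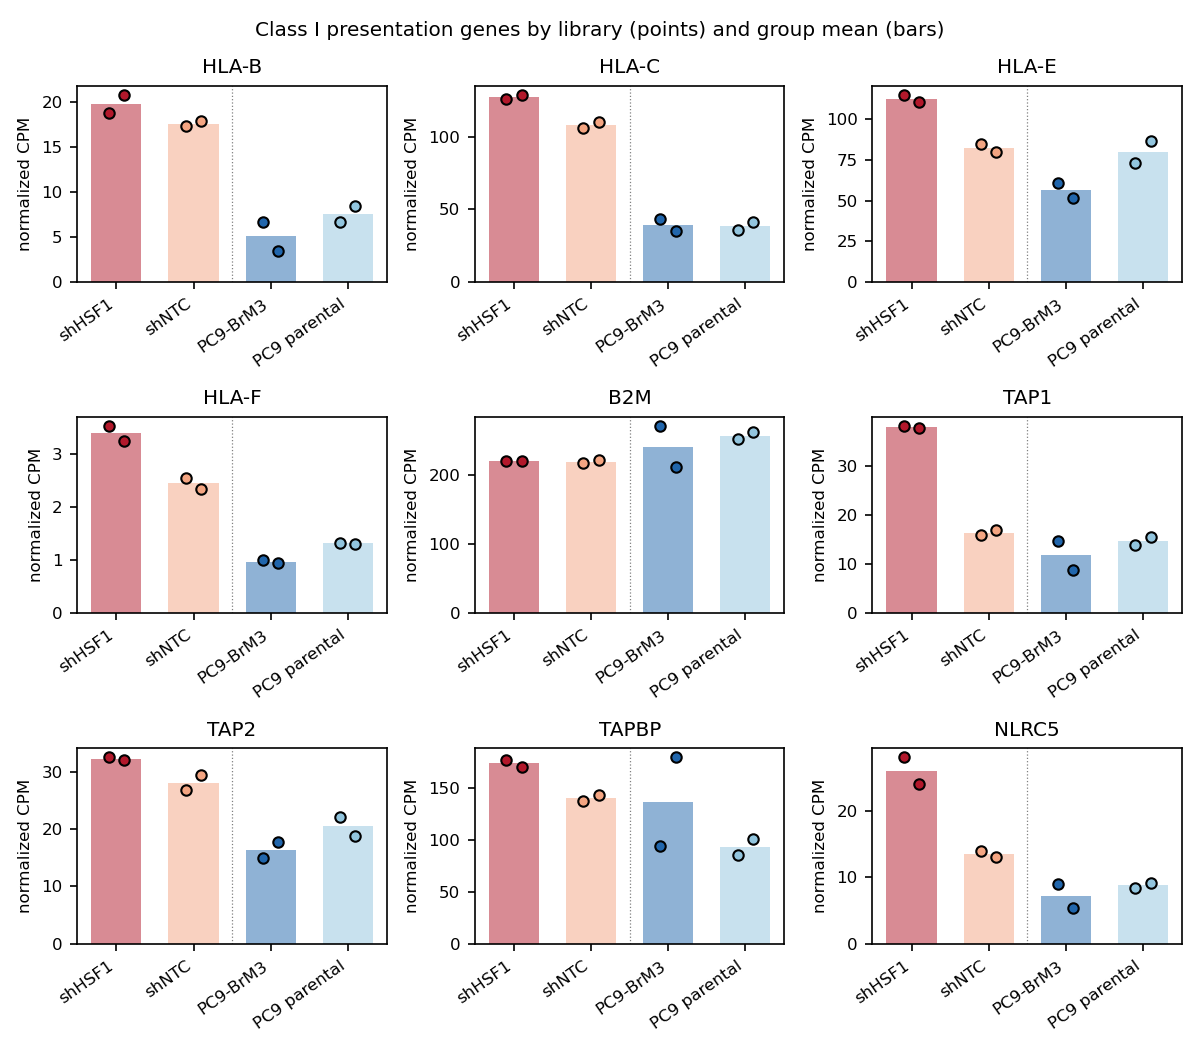
Normalized CPM of each member (vertical axis, starting at 0) in the shHSF1, shNTC, PC9-BrM3 and PC9 parental groups; points are the 2 libraries of a group, bars their mean, and the dotted line divides the lane 1 from the lane 7 libraries. TAP1 stands at 38.1 and 37.7 CPM in shHSF1, against 15.8 and 17.0 CPM in shNTC, while B2M is nearly level, and the 2 PC9-BrM3 libraries lie far apart for TAPBP.

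Class I heavy chain genes and pseudogenes are near-identical in places, so reads can be divided among them in ways that depend on the aligner. Summed over all of them in the count table, heavy chain reads came to 374 and 364 CPM in shHSF1 libraries, against 297 and 299.8 CPM in shNTC libraries. The sum does not depend on how counted reads were divided among these genes, but reads counted for no gene stay out of it. Its log2 fold change was 0.33 ± 0.05 (edgeR's quasi-likelihood test, adjusted p = 0.000839). In the fit of all 8 libraries it was 0.31 with an edgeR adjusted p of 0.174. Of the pseudogenes with enough counts, HLA-V (chr6:29758731-29765588, GRCh37) had 22.2 and 15.7 CPM in shHSF1 libraries, against 7.06 and 8.14 CPM in shNTC libraries. That was a log2 fold change of 1.35 ± 0.17 (edgeR adjusted p = 0.000141), the largest among the heavy chain copies named here. The pseudogenes HLA-H, HLA-K and HLA-L were not called (adjusted p 0.170 to 0.791), with values of 0.13, 0.52 and 0.08. Reads of HLA-V may have come from its close relatives, and this was not tested.

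Levels of different genes were compared per length, as RPKM (CPM per kilobase of the exon length in the files). That length takes in all annotated exons of a gene and may exceed the transcript made, so the order between genes depends on it. In shHSF1 cells B2M was highest at 69.7 ± 0.0208 RPKM (SD, n = 2), followed by HLA-C at 50.9 ± 0.731, HLA-E at 37.9 ± 0.996 and TAPBP at 34.4 ± 0.855. TAP1 came next at 7.99 ± 0.0510 RPKM, above HLA-B at 6.57 ± 0.468, TAP2 at 5.06 ± 0.0532, NLRC5 at 2.11 ± 0.234 and HLA-F at 0.722 ± 0.0404. In this group no neighbours in the order overlapped.
In shNTC cells the order was B2M at 69.4 ± 1.05 RPKM (SD, n = 2), HLA-C at 43.2 ± 1.24, TAPBP at 27.8 ± 0.878, HLA-E at 27.7 ± 1.23, HLA-B at 5.85 ± 0.139, TAP2 at 4.40 ± 0.288, TAP1 at 3.45 ± 0.181, NLRC5 at 1.09 ± 0.0555 and HLA-F at 0.521 ± 0.0299. TAPBP and HLA-E overlapped there. TAP1 stood above TAP2 and HLA-B in shHSF1 cells and below both in shNTC cells.

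In untransduced PC9-BrM3 cells B2M was at 76.3 ± 13.4 RPKM (SD, n = 2), TAPBP at 27.1 ± 11.9, HLA-E at 19.0 ± 2.17, HLA-C at 15.6 ± 2.39, TAP2 at 2.56 ± 0.324, TAP1 at 2.46 ± 0.866, HLA-B at 1.68 ± 0.748, NLRC5 at 0.580 ± 0.205 and HLA-F at 0.206 ± 0.00948. TAPBP overlapped HLA-E, and TAP1 overlapped both TAP2 and HLA-B. PC9 parental cells had B2M at 81.4 ± 2.20 RPKM (SD, n = 2), HLA-E at 26.9 ± 3.24, TAPBP at 18.5 ± 2.22, HLA-C at 15.3 ± 1.54, TAP2 at 3.21 ± 0.378, TAP1 at 3.08 ± 0.222, HLA-B at 2.51 ± 0.432, NLRC5 at 0.711 ± 0.0412 and HLA-F at 0.279 ± 0.00133. TAP2 and TAP1 overlapped there. HLA-C led HLA-E in both transduced groups and HLA-E led HLA-C in both untransduced groups, a contrast in which lane and transduction cannot be told apart.

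Ratios within a library, taken per length, set subunits of 1 complex against each other. TAP1 over TAP2 was 1.57 and 1.58 in shHSF1 libraries, against 0.793 and 0.778 in shNTC libraries. Per exon length in the files, TAP1 lay above TAP2 in shHSF1 cells and below it in shNTC cells. A different length for either gene would move a ratio alike in all libraries, so only its change between groups is free of that length. B2M over the 4 heavy chain members together was 0.726 and 0.724 in shHSF1 libraries, against 0.889 and 0.906 in shNTC libraries. The heavy chain share was higher after knockdown, with the light chain level. TAPBP over TAP1 was 4.35 and 4.24 in shHSF1 libraries, against 8.17 and 7.94 in shNTC libraries. The same ratio was 6.07 and 19.2 in PC9-BrM3 libraries, against 5.77 and 6.19 in PC9 parental libraries, and the high value belongs to PC9-BrM3 replicate 2.

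**Figure D2:**
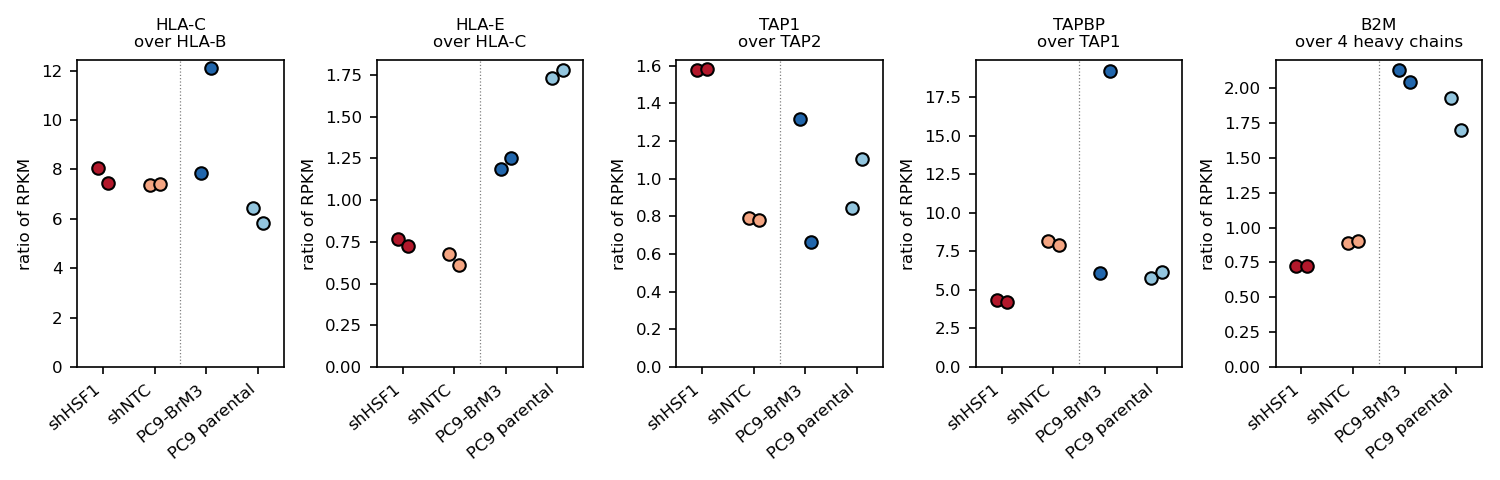
Ratios of RPKM between members (vertical axes, starting at 0) in each library of the shHSF1, shNTC, PC9-BrM3 and PC9 parental groups; each point is 1 library and the dotted line divides the lanes. TAP1 over TAP2 lies at 1.57 and 1.58 in shHSF1, against 0.793 and 0.778 in shNTC, and the 2 PC9-BrM3 libraries differ most in the ratios with TAP1, TAPBP or HLA-B.

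In the metastatic subline against its parental line, 0 of the 9 members were called with all 4 libraries, and 1, HLA-E, had an unadjusted p under 0.05 in edgeR's quasi-likelihood test, as did 4368 of all 17372 genes. Of all genes tested there, 7.14% were called, 3.87% higher and 3.27% lower. DESeq2 also called 0 members. The median log2 fold change of the members was -0.31, beside 0.01 over all genes, with 7 members below 0. For 3 members the subline and parental libraries were apart on TMM-scaled CPM, beside 56.9% of all genes on CPM before that scaling.

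HLA-E had 61.0 and 51.8 CPM in PC9-BrM3 libraries, against 73.3 and 87.0 CPM in PC9 parental libraries. Both subline libraries were below both parental ones, and the log2 fold change was -0.50 ± 0.17 (edgeR adjusted p = 0.145). Without PC9-BrM3 replicate 2 it was -0.40 and called (edgeR adjusted p = 0.0108), and in the fit of all 8 libraries it was also called (adjusted p = 0.0254). TAP2 had 14.9 and 17.8 CPM in PC9-BrM3 libraries, against 22.2 and 18.8 CPM in PC9 parental libraries, without overlap. Its log2 fold change was -0.32 ± 0.19 with all libraries (edgeR adjusted p = 0.352) and -0.46 without PC9-BrM3 replicate 2 (adjusted p = 0.0177). HLA-F had 0.995 and 0.932 CPM in PC9-BrM3 libraries, against 1.31 and 1.30 CPM in PC9 parental libraries, from 31 to 74 counts each. Its groups did not overlap, with a log2 fold change of -0.43 ± 0.29 (edgeR adjusted p = 0.403), and -0.40 without PC9-BrM3 replicate 2.

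The remaining members overlapped between the groups. For TAPBP, TAP1, NLRC5 and HLA-B, PC9-BrM3 replicate 1 lay within the range of the parental libraries and replicate 2 lay outside it. TAPBP had 94.4 and 179.6 CPM in PC9-BrM3 libraries, against 85.4 and 101 CPM in PC9 parental libraries. The high value is replicate 2, and the log2 fold change was 0.56 ± 0.31 with it (edgeR adjusted p = 0.314) and 0.01 without it. TAP1 had 14.6 and 8.78 CPM in PC9-BrM3 libraries, against 13.9 and 15.4 CPM in PC9 parental libraries. Its log2 fold change was -0.31 ± 0.28 with all libraries (edgeR adjusted p = 0.520) and -0.01 without replicate 2 of the subline.
NLRC5 had 8.97 and 5.38 CPM in PC9-BrM3 libraries, against 8.44 and 9.16 CPM in PC9 parental libraries. It too was low in replicate 2, with a log2 fold change of -0.28 ± 0.29 (edgeR adjusted p = 0.580) and 0.02 without that library. HLA-B had 6.65 and 3.46 CPM in PC9-BrM3 libraries, against 6.64 and 8.48 CPM in PC9 parental libraries, a log2 fold change of -0.56 ± 0.35 (edgeR adjusted p = 0.367) and -0.19 without replicate 2.

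HLA-C had 43.3 and 34.9 CPM in PC9-BrM3 libraries, against 35.7 and 41.1 CPM in PC9 parental libraries. The groups lay within each other, with a log2 fold change of 0.04 (interval -0.31 to 0.38, edgeR adjusted p = 0.913). B2M had 270.3 and 211 CPM in PC9-BrM3 libraries, against 252 and 261 CPM in PC9 parental libraries. Its log2 fold change was -0.08 (interval -0.42 to 0.25, edgeR adjusted p = 0.786). Without replicate 2 the values were 0.17 for HLA-C and 0.07 for B2M. Summed heavy chain reads were 163 and 123 CPM in PC9-BrM3 libraries, against 166 and 191 CPM in PC9 parental libraries, a log2 fold change of -0.31 ± 0.19 (edgeR adjusted p = 0.358).

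The choice of subline library moved the members' values. Without PC9-BrM3 replicate 2, HLA-E and TAP2 stayed lower, with the values given above. Without PC9-BrM3 replicate 1, which leaves replicate 2 alone for the subline, the log2 fold change was 0.95 for TAPBP and -0.28 for B2M. It was -1.12 for HLA-B, -0.73 for TAP1, -0.70 for NLRC5 and -0.62 for HLA-E. In each such fit the lone library is assumed to vary like the parental pair. HLA-B, HLA-E, HLA-F, TAP1 and TAP2 were below 0 in both fits. Whether the high mitochondrial share of replicate 2 bears on these values was not tested beyond leaving out mitochondrial genes, which called 0 members as before.

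**Figure D3:**
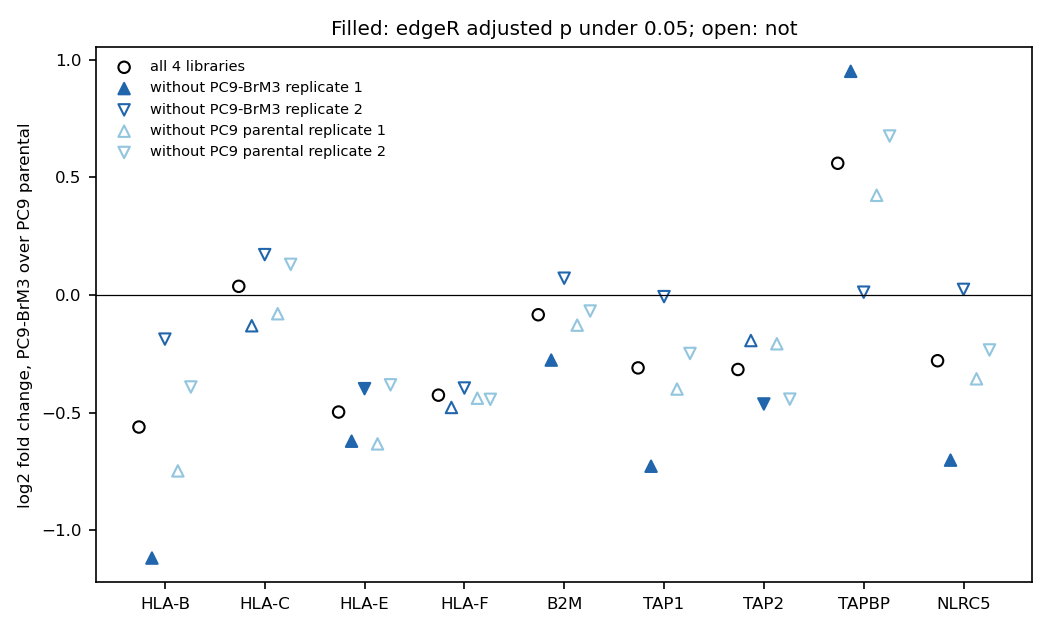
Log2 fold change of each member in PC9-BrM3 over PC9 parental cells (vertical axis) with all 4 libraries (circles) and with each library left out in turn (triangles); filled symbols have an edgeR adjusted p under 0.05. HLA-B, HLA-E, HLA-F, TAP1 and TAP2 are below 0 in all 5 fits, while TAPBP runs between 0.01 and 0.95 and HLA-B between -1.12 and -0.19.

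The 2 comparisons share no library, so the difference between them could be tested, with the knockdown change minus the subline change fitted over all 8 libraries. Of the 9 members 3 were called, all higher in the knockdown comparison, beside 9.77% of 18122 genes called higher and 13.8% called lower. They were TAP1 at a log2 difference of 1.53 ± 0.30 (edgeR's quasi-likelihood test, adjusted p = 0.00863), NLRC5 at 1.23 ± 0.32 (adjusted p = 0.0255) and HLA-E at 0.96 ± 0.18 (adjusted p = 0.00697). TAP1 and HLA-E were called with any 1 library left out. NLRC5 was not called without 1 of the shHSF1, shNTC or PC9 parental libraries (edgeR adjusted p 0.0613 to 0.107) and was called without either PC9-BrM3 library. HLA-F missed the threshold at 0.90 ± 0.29 (edgeR adjusted p = 0.0584), as did HLA-B at 0.73 ± 0.38 (adjusted p = 0.204) and TAP2 at 0.53 ± 0.20 (adjusted p = 0.0914). The differences for B2M (0.10), HLA-C (0.21) and TAPBP (-0.25) were within 2 SE.

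**Figure D4:**
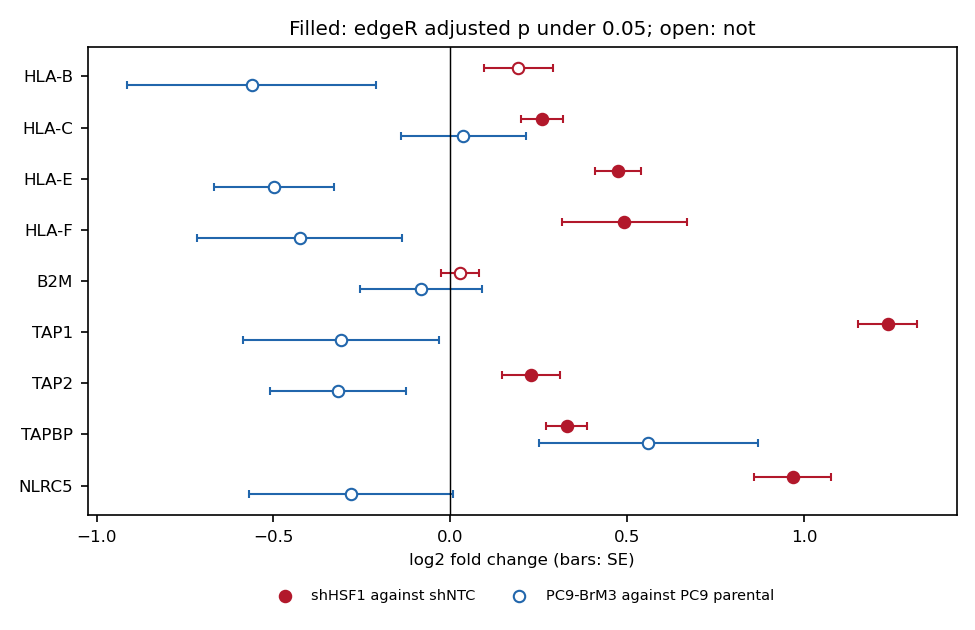
Log2 fold change with its SE for each member in shHSF1 over shNTC cells (red) and PC9-BrM3 over PC9 parental cells (blue); filled points have an edgeR adjusted p under 0.05 over all genes. Red points run from 0.03 for B2M to 1.24 for TAP1, and all blue points are open.

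Of 14 peptide supply genes, which make and trim the peptides, 4 were higher and 4 lower after knockdown. Their median log2 fold change was 0.00, and the 13 alternatives gave 0 to 5 higher and 1 to 4 lower. In this comparison 22.2% of all genes were called higher and 23.5% lower, and these shares apply to each knockdown list below. ERAP1, the aminopeptidase that trims peptides in the endoplasmic reticulum, had 21.4 and 22.1 CPM in shHSF1 libraries, against 45.0 and 43.6 CPM in shNTC libraries. This was a log2 fold change of -1.002 ± 0.08 (edgeR's quasi-likelihood test, adjusted p = 7.33e-06), called under all 13 alternatives. ERAP2, its relative, fell by 0.26 (edgeR adjusted p = 0.0137), a call lost without shHSF1 replicate 1, without shNTC replicate 1 and in the fit of all 8 libraries. PSMB9, an inducible immunoproteasome subunit, had 2.00 and 1.65 CPM in shHSF1 libraries, against 2.93 and 2.80 CPM in shNTC libraries. Its log2 fold change was -0.62 ± 0.20 (edgeR adjusted p = 0.0272), opposite in sign to its neighbour TAP1, and the call was lost with DESeq2, with all 8 libraries and without shHSF1 replicate 2 or either shNTC library.

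PSMB9 starts beside TAP1 on the opposite strand, and in the authors' annotation its range, chr6:32811913-32827362 on the plus strand, covers that of TAP1. Counting was by strand per the file headers, so reads of the pair are separated only as far as the libraries kept strand. PSMB8, the immunoproteasome subunit gene between TAP2 and TAP1, had 40.1 and 39.4 CPM in shHSF1 libraries, against 36.2 and 37.2 CPM in shNTC libraries, and was not called (log2 0.14 ± 0.07, edgeR adjusted p = 0.147). Of the constitutive proteasome subunits, PSMB7 was higher by a log2 fold change of 0.32 and PSMB6 by 0.27 (edgeR adjusted p 0.00196 and 0.00485), and PSMB5 was not called (adjusted p = 0.984). The cytosolic peptidase NPEPPS rose by a log2 fold change of 0.38 (edgeR adjusted p = 0.000657), and the calls of PSMB6, PSMB7 and NPEPPS were lost in the fit of all 8 libraries.

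Of 10 genes for loading and quality control in the endoplasmic reticulum, 3 were higher and 3 lower (median log2 0.07; 0 to 4 higher and 0 to 3 lower under the alternatives). TAPBPL, a tapasin relative that edits peptides away from the transporter, had 6.29 and 5.80 CPM in shHSF1 libraries, against 8.55 and 8.60 CPM in shNTC libraries. It moved opposite to TAPBP, at -0.48 ± 0.13 (edgeR's quasi-likelihood test, adjusted p = 0.0109), and was not called without shHSF1 replicate 2 or in the fit of all 8 libraries. UGGT1, which returns badly folded glycoproteins for another round of folding, was lower at -0.26 (edgeR adjusted p = 0.00299), and the chaperone HSPA5 was higher at 0.30 (adjusted p = 0.00452), both lost in the fit of all 8 libraries. CALR and PDIA3, the chaperone and disulphide isomerase of the loading complex, were both at 0.12 and were not called (edgeR adjusted p 0.245 and 0.148).

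Of 15 interferon signalling genes, 3 were higher and 4 lower, beside 22.2% of all genes called higher and 23.5% lower. The list had a median log2 fold change of 0.07, and the alternatives gave 2 to 5 higher and 3 to 4 lower. IFNGR1, a chain of the interferon gamma receptor, had 83.5 and 74.1 CPM in shHSF1 libraries, against 49.9 and 45.4 CPM in shNTC libraries, a log2 fold change of 0.75 ± 0.08 (edgeR's quasi-likelihood test, adjusted p = 6.54e-05). Its partner IFNGR2 had 23.1 and 23.0 CPM in shHSF1 libraries, against 37.1 and 36.4 CPM in shNTC libraries, at -0.65 ± 0.08 (edgeR adjusted p = 0.000121). The receptor chains thus changed in opposite directions, each under all 13 alternatives. JAK1, a kinase used by the receptors for interferon gamma and interferon alpha alike, was lower at -0.49 ± 0.06 (edgeR adjusted p = 0.000120). IRF1, which carries the signal to the class I promoters, had 16.3 and 11.9 CPM in shHSF1 libraries, against 14.4 and 12.5 CPM in shNTC libraries. It was not called, at 0.09 ± 0.15 (edgeR adjusted p = 0.665).

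Of 13 tested genes for factors that bind or mark class I promoters, 2 were higher and 4 lower (median log2 -0.06; 0 to 2 higher and 1 to 4 lower under the alternatives). Subunits of NF-kappa B, which binds the kappa B site, rose, RELA by a log2 fold change of 0.44 ± 0.07 and NFKB1 by 0.32 ± 0.08 (edgeR's quasi-likelihood test, adjusted p 0.000771 and 0.00939). RFX5, the RFX subunit that works with NLRC5 at the X box, had 49.0 and 41.7 CPM in shHSF1 libraries, against 58.9 and 58.3 CPM in shNTC libraries. It was lower at -0.35 ± 0.09 (edgeR adjusted p = 0.00815), a call lost without shHSF1 replicate 2. The calls of RFX5, RELA and NFKB1 were lost in the fit of all 8 libraries, and that of NFKB1 without shNTC replicate 1. CREB1, a factor of the X2 box, was lower at -0.53 ± 0.07 (edgeR adjusted p = 0.000197), called under all 13 alternatives.

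Class II transcripts were mostly at or near 0. Of 13 class II genes 2 passed the filter, and HLA-DRA, HLA-DRB1 and CD74 had 0 counts in all 4 transduced libraries. CIITA, the class II counterpart of NLRC5, had 0.0770 and 0.0560 CPM in shHSF1 libraries, against 0.103 and 0.272 CPM in shNTC libraries, and was too low to test. CTSS, a peptidase of the class II route, was called higher at 0.97 ± 0.20 (edgeR's quasi-likelihood test, adjusted p = 0.00353), a call lost in the fit of all 8 libraries.

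Surface ligands related to class I, most of them seen by natural killer cells, had 6 higher and 2 lower of 11 tested in the knockdown comparison (4 to 6 higher and 0 to 2 lower under the alternatives). Their median log2 fold change was 0.61, and 0.37 without shHSF1 replicate 1. MICB, a stress-induced ligand of the activating receptor NKG2D, had 92.6 and 98.7 CPM in shHSF1 libraries, against 48.8 and 50.9 CPM in shNTC libraries, a log2 fold change of 0.96 ± 0.07 (edgeR's quasi-likelihood test, adjusted p = 3.43e-06). MICA, a ligand of the same receptor, was at 1.05 ± 0.15 (edgeR adjusted p = 0.000300). RAET1L, another one, was at 1.83 ± 0.24 (edgeR adjusted p = 0.000209). The class I-like iron regulator HFE was lower at -0.48 ± 0.08 (edgeR adjusted p = 0.000703), a call lost in the fit of all 8 libraries. The NKG2D ligand ULBP3 was lower at -0.62 ± 0.20 (edgeR adjusted p = 0.0271), a call lost with any 1 of the 4 libraries left out.

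Of 9 tested ligands that restrain T cells, 4 were higher and 2 lower (3 to 4 higher and 0 to 2 lower under the alternatives). CD274, which encodes PD-L1, had 17.2 and 14.0 CPM in shHSF1 libraries, against 8.67 and 8.11 CPM in shNTC libraries, a log2 fold change of 0.92 ± 0.13 (edgeR's quasi-likelihood test, adjusted p = 0.000308). PDCD1LG2, for PD-L2, was at 1.73 ± 0.21 (edgeR adjusted p = 0.000131), and the call of both genes was kept under all 13 alternatives. CD276, a relative of PD-L1, was lower at -0.82 ± 0.08 (edgeR adjusted p = 2.73e-05), a call lost in the fit of all 8 libraries.

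Of 10 genes listed as ubiquitin ligases and sorting factors that may act on class I molecules, 4 were higher and 0 lower. Their median log2 fold change was 0.15, and the alternatives gave 3 to 5 higher. Over all genes 22.2% were called higher and 23.5% lower. MARCHF4, a membrane ubiquitin ligase able to drive class I off the surface, had 191 and 190.3 CPM in shHSF1 libraries, against 50.2 and 50.4 CPM in shNTC libraries. The replicates nearly coincided, and the log2 fold change was 1.95 ± 0.06 (edgeR's quasi-likelihood test, adjusted p = 3.97e-08). The ligase RNF139 was at 0.69 ± 0.07 (edgeR adjusted p = 5.76e-05). These are transcript levels, and surface class I was not measured.

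Most other interferon-stimulated genes were lower after knockdown. Of 18 tested, 11 were lower and 3 higher (median log2 -0.51; 8 to 11 lower and 1 to 3 higher under the alternatives). BST2, which tethers budding virus, had 24.3 and 21.4 CPM in shHSF1 libraries, against 72.7 and 71.2 CPM in shNTC libraries, a log2 fold change of -1.63 ± 0.08 (edgeR's quasi-likelihood test, adjusted p = 5.02e-07). PARP9 was lower at -1.13 ± 0.11, IFIT2 at -1.80 ± 0.20 and IFIT1 at -2.84 ± 0.39, though IFIT1 had no more than 1.12 CPM in any of the 4 libraries. The interferon gamma-responsive GTPase gene GBP1 had 35.7 and 25.9 CPM in shHSF1 libraries, against 12.4 and 6.97 CPM in shNTC libraries. It was higher at 1.68 ± 0.33 (edgeR adjusted p = 0.0171), a call lost without either shHSF1 library and with no count filter. The difference in direction between this list and the members was not tested.

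**Figure D5:**
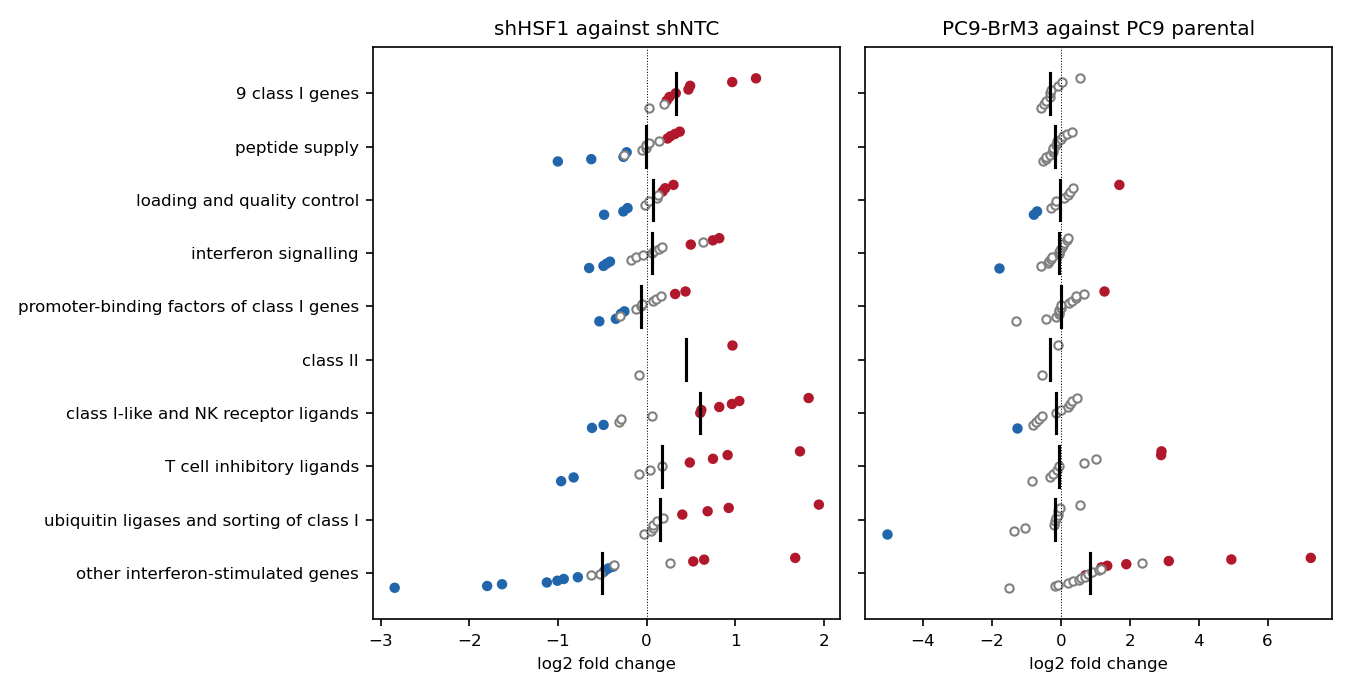
Log2 fold changes of the 9 members and of 9 related gene lists in shHSF1 over shNTC cells (left) and PC9-BrM3 over PC9 parental cells (right), with different horizontal scales; each point is a gene, red or blue where edgeR's adjusted p was under 0.05 (higher or lower) and open grey otherwise, and black bars are medians. Other interferon-stimulated genes have a median of -0.51 on the left and 0.86 on the right, while the members have 0.33 and -0.31.

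In the subline comparison few genes of the same lists were called. Of 14 peptide supply genes edgeR called 0. Their median log2 fold change was -0.18, and it was -0.39 without PC9-BrM3 replicate 1 and -0.02 without replicate 2. Of 10 loading genes, TAPBPL was higher, with 4.82 and 5.83 CPM in PC9-BrM3 libraries, against 1.31 and 1.99 CPM in PC9 parental libraries. Its log2 fold change was 1.70 ± 0.30 (edgeR's quasi-likelihood test, adjusted p = 0.0318), and it was not called without either parental library. UGGT1 at -0.69 ± 0.14 and HSPA5 at -0.78 ± 0.16 were lower (edgeR adjusted p 0.0429 and 0.0486), and their calls were lost without either parental library. Among promoter-binding factors NFYB, a Y box subunit, was the 1 gene called of 14, at 1.26 ± 0.17 (edgeR adjusted p = 0.0152). SOCS3, an inhibitor of JAK signalling, was the 1 gene called of 14 tested for interferon signalling, at -1.78 ± 0.31 (edgeR adjusted p = 0.0313). The call of NFYB was lost without either parental library and that of SOCS3 without PC9 parental replicate 1. The counts and medians also turned on the subline pair. Without PC9-BrM3 replicate 1 the median log2 fold change was -0.04 for loading, 0.19 for promoter-binding factors and -0.11 for interferon signalling. Without PC9-BrM3 replicate 2 it was -0.05, -0.07 and -0.09 in the same order.

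Other interferon-stimulated genes were the exception in the subline, with 7 higher and 0 lower of 20 tested (5 higher with the replicate block). Their median log2 fold change was 0.86, and 0.62 to 1.07 under the alternatives. BST2 had 84.4 and 48.6 CPM in PC9-BrM3 libraries, against 2.18 and 2.16 CPM in PC9 parental libraries, a log2 fold change of 4.95 ± 0.33 (edgeR's quasi-likelihood test, adjusted p = 0.00344). GBP1 had 27.3 and 38.2 CPM in PC9-BrM3 libraries, against 3.31 and 4.21 CPM in PC9 parental libraries, at 3.13 ± 0.26 (edgeR adjusted p = 0.00479). GBP2, of the same family, had 40.3 and 49.0 CPM in PC9-BrM3 libraries, against 11.4 and 12.6 CPM in PC9 parental libraries, at 1.90 ± 0.18 (edgeR adjusted p = 0.00622). These 3 were called under all 13 alternatives. In both subline libraries they were above both parental ones. The members HLA-E, HLA-F and TAP2 were below, but they were not called with all 4 libraries. In this comparison 56.9% of all genes had groups that did not overlap, on CPM before TMM scaling.
Of 9 tested T cell inhibitory ligands 2 were higher, VTCN1 at 2.92 ± 0.35 and TNFRSF14 at 2.91 ± 0.38 (edgeR adjusted p 0.0116 and 0.0151). TNFRSF14 had no more than 1.20 CPM in any of the 4 libraries. The list's median log2 fold change was -0.06, and it was 0.03 without PC9-BrM3 replicate 1 and 0.04 without replicate 2. VTCN1 was not called without either PC9-BrM3 library, and TNFRSF14 was not called without either parental library. Of 11 tested class I-like genes and natural killer ligands 1 was called, PROCR (a class I-like receptor of protein C), lower at -1.28 ± 0.25 (edgeR adjusted p = 0.0408), and this was lost without either parental library. The median of that list was -0.14, and it was -0.30 without PC9-BrM3 replicate 1 and -0.28 without replicate 2. Of 10 ubiquitin ligase and sorting genes 1 was called lower, MARCHF1, a ubiquitin ligase gene at 0.0375 and 0.0301 CPM in PC9-BrM3 libraries, against 0.743 and 1.74 CPM in PC9 parental libraries. This list had a median of -0.16, and of -0.43 without PC9-BrM3 replicate 1 and -0.12 without replicate 2. Neither of the class II genes that passed the filter was called in the subline by edgeR with all 4 libraries. Their median was -0.31, and -1.19 without PC9-BrM3 replicate 1.

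Across the 8 libraries the members did not form a single block. The Pearson correlation of log2 CPM between a member and the mean of the other 8 was 0.88 to 0.99 for HLA-B, HLA-C, HLA-E, HLA-F, TAP1, TAP2 and NLRC5, but 0.46 for TAPBP and -0.50 for B2M. Among 10827 other genes with a mean of at least 5 CPM, the 8 whose pattern was most like the members' mean were MYG1, NECAP2, LINC01605, CCDC85C, TINAGL1, VPS4A, EPHA2 and EMP3, with r between 0.995 and 0.996. EMP3, a small membrane protein gene, had log2 fold changes of 1.27 after knockdown and -0.88 in the subline. MYG1, at the head, had 0.41 and -0.29. These correlations are descriptions over 8 libraries that fall into 2 lanes, and the step between lanes enters each of them.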

How the data were processed

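The authors deposited raw read counts per gene for 8 libraries. Reads on the reverse strand were assigned to the exons of each Ensembl GRCh37 gene by featureCounts 1.6.1, per the file headers. Trim Galore, HISAT2 and DESeq2 are named per the submitters' processing notes, without roles. Groups came from the sample titles. A symbol was found for 81.9% of gene IDs, and the unmatched rest took 0.656% to 0.823% of a library's counts.

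The 2 comparisons were fitted apart, each on 4 libraries, with the robust quasi-likelihood test of edgeR 4.0.16 under R 4.3.3. Low counts were removed by filterByExpr (at least 10 counts, 15 in total), library sizes were scaled by TMM, and p-values were adjusted by Benjamini-Hochberg over all genes with a threshold of 0.05. CPM use TMM-scaled library sizes over all 8 libraries, and RPKM the exon length in the files. Intervals are 1.96 SE on either side. They take no account of the few degrees of freedom of the quasi-likelihood test, so they are narrower than its 95% intervals. The limit from a 0 count (3 counts over the unscaled total) covers counting error only. Alternatives were DESeq2 1.42.0, other size factors, no filter, a replicate block, non-robust estimation, summed heavy chains, all 8 libraries in 1 fit and each library left out; leaving out mitochondrial genes was added after seeing the data. The fit of all 8 libraries estimates 1 spread per gene shared by all groups, the PC9-BrM3 pair included. The tests were tried on simulated data.

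The members and lists were chosen with earlier results of these data known. Named genes were all members, HSF1, a few fixed pathway genes, of each list up to 4 genes per direction by smallest p, the heavy chain copies and the 8 genes most correlated with the members (log2 of CPM plus 0.5). Not every gene the rule allows is described. Promoter windows came from RefSeq (GRCh38.p14), where HLA-E and NLRC5 are named only. Some genes are not reported here. Differences between the lists were not tested.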

Additional observations from a re-analysis of the deposited data

How the results depend on the processing

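No member or named gene changed sign under any alternative in the comparison where it was called, while some that were not called did, such as HLA-C, B2M and NLRC5 in the subline and IRF1 and PSMB5 in the knockdown. In the knockdown comparison the fit of all 8 libraries gave 1639 genes higher and 2234 lower, with 3 members called, and a summed heavy chain change of 0.31 (adjusted p = 0.174); the cause was not tested. In the subline comparison 1660 genes were higher and 1499 lower with no count filter, 1991 and 1822 in the fit of all 8 libraries (1 member lower), and 1167 and 980 with DESeq2. Leaving out 1 library gave 182 to 4702 genes higher, 220 to 4526 lower, 0 to 1 members higher and 0 to 5 lower. The summed heavy chain change there ran from -0.53 to -0.13 and passed without PC9-BrM3 replicate 1 (edgeR adjusted p = 0.000232). For the difference between comparisons, leaving out 1 library gave 2 to 8 members higher and 0 to 1 lower, the most without PC9-BrM3 replicate 1.

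Samples with the same replicate number did not deviate together (correlation 0.0118 for the knockdown and 0.00573 for the subline pairs), so the numbers were not taken to pair them. With the replicate block the knockdown comparison had 3893 genes higher, 4122 lower and 7 members called, and the subline comparison 717 higher, 611 lower and 0 members. Of the genes named in the report, UGGT1 and HSPA5 were not called in the subline with it. Small changes of HLA-F rest on 31 to 137 counts a library, and 2 libraries a group limit every call.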
